A study of Mus musculus with 128 samples.

Results

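The comparison is between livers of BALB/c mice that drank any sugar with their chow and livers of BALB/c mice that drank water, 12 h after food was given. It holds 18 libraries of a series of 63 from BALB/c and 65 from C57BL6/J mice, and takes all those labelled BALB/c and 12 h. There were 5 with water and 13 with sugar (4 glucose, 5 sucrose and 4 fructose). Every mouse was a wild type male, bought at 8 weeks of age and then trained for 1 week to eat at set hours. All were fasted for 21 h, had no water from 4 pm, and at 7 pm received chow that supplies 64.5% of its calories as carbohydrate and 10% as fat. The sugar drinks were water with 20% glucose, sucrose or fructose, so the water group also took a meal rich in carbohydrate and is not a fasted control. RNA came from pieces of whole liver. In such bulk samples fewer cells of a type and less RNA per cell cannot be told apart. The labels do not say outright that replicates are separate mice, so that a p-value here speaks only of how much these libraries vary. Replicates are numbered in the order of the library names, with no number 4 for glucose or fructose. Levels are given in CPM, a gene's share of the library's counts scaled for library composition, and not per length, so that they compare libraries and not genes. Genes were called at an adjusted p under 0.05 in edgeR's quasi-likelihood test with Benjamini-Hochberg adjustment over 16886 genes.

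After a meal, insulin holds the forkhead factor FoxO1 out of the hepatocyte nucleus, so that genes of glucose release and of low insulin, such as Igfbp1, are low. Glucose and fructose also act through the carbohydrate response factor ChREBP, which raises genes of glycolysis, fructose breakdown and fat synthesis. Fructose enters liver metabolism through enzymes that include ketohexokinase (Khk) and triokinase (listed in the files as Dak), and sucrose is split in the gut into glucose and fructose.

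Total counts were 19697267 to 35642447 per library, and mitochondrially encoded genes took 3.38% to 8.73% of them. The 10 hepatocyte markers summed to 53622 CPM in water replicate 1 and to between 68657 and 117001 CPM in the other 17 libraries, and none was at 0 throughout. Water replicate 1 stood apart from the other 17 libraries in other respects too. In it, 197 genes were at least 2-fold above the highest of the other libraries and 203 were at least 2-fold below the lowest. In each of the others these numbers were 0 to 33 and 0 to 7. Its median correlation with the other libraries was 0.953, against 0.969 to 0.976 for the rest. Results that rest on it are therefore given with and without it.

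**Figure D1:**
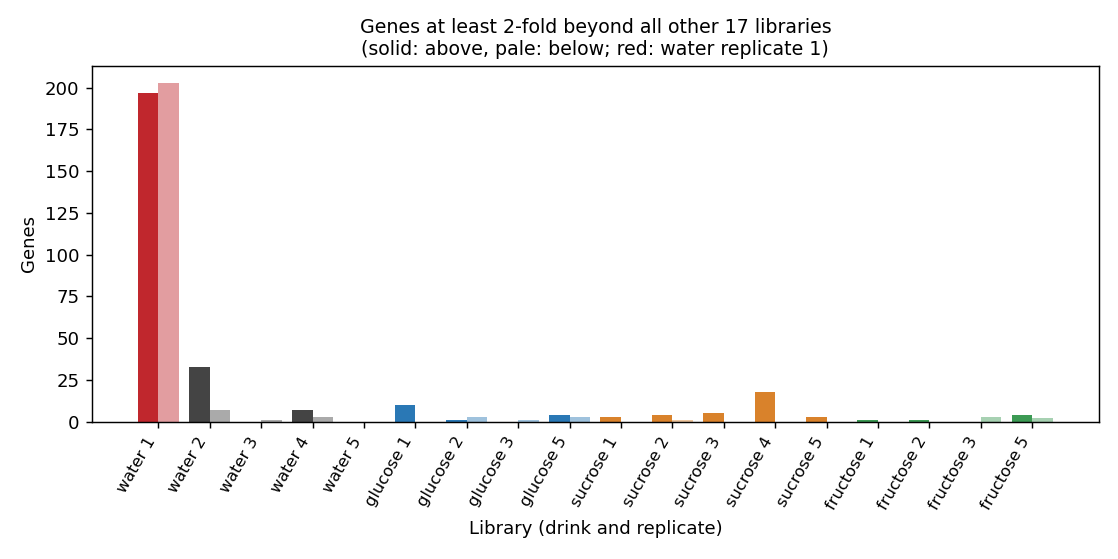
Number of genes (vertical axis) at least 2-fold beyond all other 17 libraries, for each of the 18 BALB/c libraries at 12 h (horizontal axis). Solid bars count genes above the others and pale bars genes below. Water replicate 1, in red, has 197 above and 203 below, and the other libraries have at most 33 and 7.

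Across the pooled sugars, 19 genes were called lower than with water (0.113% of the genes tested) and 0 were called higher. At an unadjusted p under 0.05 there were 655 genes, 482 lower and 173 higher. This is a smaller share of the genes tested than the 0.05 that would pass on average if no gene differed. The same holds for each count of unadjusted p under 0.05 over all genes tested that is given below. The 19 genes called by edgeR included Igfbp1, Cux2, Fam107a, Ppp1r3g, Lepr, Gm11827, Lpin1, Ddit4, Setdb2, Phf11c, RP24-260I8.2, Inhbb, Map3k6, Per3, Txnip, Sesn1 and Rhbdd2. Their log2 fold changes ran from -3.67 to -0.90 with a median of -2.52. DESeq2 called 33 genes, 6 higher and 27 lower, among them 18 of the 19. The 1 of the 19 left was Igfbp1, to which DESeq2 gave no p. Of those 33, 14 had a mean under 1 CPM over the 18 libraries. Of the 6 higher, only Erbb4 had a mean of at least 1 CPM. For 18 of the genes called by edgeR water replicate 1 was at least 2-fold above every other library, and this held for all those just named. For all 19 the sugar libraries overlapped water replicates 2 to 5. Without water replicate 1, 0 of the 16873 genes tested were called by edgeR (0%) and 314 had an unadjusted p under 0.05. The median log2 fold change of the 19 was then 0.01, and 10 of them were above 0. The names of 4 of the 18 libraries, replicate 2 of each group, carry an added letter whose meaning the labels do not give. Without such libraries 13 genes were called, and the 4 alone are too few to compare, with 1 in each group. With the replicate number added to the fit of all libraries as a block, 6 genes were called, all lower.

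Forkhead elements were looked for in the start regions of the called genes because of Igfbp1. It had the lowest log2 fold change of them with all libraries and is the textbook gene that insulin lowers through such an element. RefSeq start regions (GRCm38.p6, 250 bases before to 50 after a start) were matched for 15 of the 19 genes, in 20 windows. The letters CAAAACA, on either strand, were found for Igfbp1 and Lepr, and in 6.28% of all 32851 windows. The letters GTAAACA were found for Sesn1 and Txnip, and in 3.65% of all windows. The E-box CACGTG, bound by clock factors, was found for 0 of the 15 and in 7.15% of all windows. The first and second of these motifs share their ending. A match is a description of the sequence only. The windows of Igfbp1, Lepr (1 of its 2 starts) and Txnip are shown with the match in capitals, 108, 114 and 121 bases before the start.
Igfbp1, chr11:7197537-7197836, plus strand: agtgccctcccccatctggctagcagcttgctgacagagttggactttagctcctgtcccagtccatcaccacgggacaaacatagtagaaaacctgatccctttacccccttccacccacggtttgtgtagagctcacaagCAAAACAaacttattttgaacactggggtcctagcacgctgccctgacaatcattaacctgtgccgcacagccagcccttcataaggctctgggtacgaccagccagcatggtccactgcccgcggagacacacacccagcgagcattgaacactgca
Lepr, chr4:101717656-101717955, plus strand: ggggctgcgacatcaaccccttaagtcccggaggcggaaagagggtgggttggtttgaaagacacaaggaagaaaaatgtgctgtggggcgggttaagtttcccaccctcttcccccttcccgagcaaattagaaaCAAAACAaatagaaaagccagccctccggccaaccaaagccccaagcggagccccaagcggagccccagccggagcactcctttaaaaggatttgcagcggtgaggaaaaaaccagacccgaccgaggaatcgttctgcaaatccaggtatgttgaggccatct
Txnip, chr3:96557707-96558006, plus strand: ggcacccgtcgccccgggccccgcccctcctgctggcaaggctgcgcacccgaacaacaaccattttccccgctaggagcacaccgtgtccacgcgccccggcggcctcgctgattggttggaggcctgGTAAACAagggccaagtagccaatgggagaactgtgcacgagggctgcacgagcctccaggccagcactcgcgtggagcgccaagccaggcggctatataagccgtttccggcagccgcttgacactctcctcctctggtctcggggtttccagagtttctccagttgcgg

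Igfbp1 (chr11:7197782-7202546 in mm10), which encodes a binding protein for insulin-like growth factors and is kept low by insulin, stood at 1939, 18.0, 15.1, 69.5 and 16.2 CPM in water replicates 1 to 5. With sugar it lay between 14.8 and 57.1 CPM. Only water replicate 1 was high, and the other 4 water libraries and the 13 sugar libraries shared one range. The log2 fold change of Igfbp1 was -3.67 ± 0.78 (SE, adjusted p = 0.0103) with all libraries, and 0.12 with a 95% interval of -1.57 to 1.81 without water replicate 1. Sesn1, a sestrin that restrains the growth kinase mTORC1, was at 64.0, 13.3, 8.89, 8.62 and 9.47 CPM with water and at 8.26 to 11.6 CPM with sugar. Ddit4, another restraint on mTORC1, stood at 165 CPM in water replicate 1, while the other 4 with water spanned 2.02 to 7.06 CPM and those with sugar 3.49 to 12.0 CPM. Of the 16 genes of the list of glucose release and FoxO1 targets, 2 were called lower (Igfbp1 and Sesn1) and 0 higher, beside 0.113% and 0% of all genes tested. The median log2 fold change of the 16 was 0.05, against -0.01 over all genes tested. Without water replicate 1 none of the 16 was called and the median was 0.12.

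Of 21 genes of triglycerides and lipid droplets 1 was called lower (Lpin1), and of 10 glycogen genes 1 (Ppp1r3g), beside 0.113% of all genes tested. The medians of these lists were 0.04 and 0.08. Lpin1 (chr12:16535669-16589770), a phosphatidate phosphatase of triglyceride synthesis, was at 855, 63.6, 15.9, 37.6 and 14.6 CPM with water. It was at 25.6, 100.4, 10.6 and 48.5 CPM with glucose, at 37.2, 39.8, 22.8, 54.1 and 15.1 CPM with sucrose and at 18.4, 33.6, 22.1 and 21.5 CPM with fructose. Outside water replicate 1 the 4 drinks overlapped. The log2 fold change was -2.56 ± 0.43 (adjusted p = 0.000159), and 0.02 (95% interval -0.80 to 0.85) without that library. Ppp1r3g, a subunit that brings a phosphatase to glycogen, reached 57.4 CPM in water replicate 1, where the remaining water livers had 1.23 to 1.99 CPM and the sugar livers 0.298 to 2.57 CPM. Txnip, a ChREBP target that limits glucose uptake, was at 477, 70.1, 54.5, 99.4 and 52.2 CPM with water and at 36.3 to 109.5 CPM with sugar. For Txnip the log2 fold change was -1.50 ± 0.30 (adjusted p = 0.00462), and -0.37 (95% interval -0.97 to 0.23) without water replicate 1.

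Lpin1 shared the smallest adjusted p with 2 genes that lie close together on chromosome 14. Setdb2 (chr14:59402009-59440884) encodes a histone methyltransferase, and Phf11c (chr14:59380833-59395381) a protein with a PHD finger that has near relatives beside it, so that its counts may be split with them. Setdb2 was at 233, 14.2, 12.0, 8.25 and 7.84 CPM with water and at 8.16 to 18.2 CPM with sugar. Phf11c was at 208, 6.15, 10.6, 16.0 and 16.4 CPM with water and at 8.61 to 15.6 CPM with sugar. In both, the sugar range lay within or across that of water replicates 2 to 5. Their log2 fold changes were -2.21 ± 0.36 and -2.20 ± 0.37 (both adjusted p = 0.000159), and 0.17 and -0.14 without water replicate 1.

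The other called genes span hormone receptors, sex-biased genes and the clock. Lepr, the leptin receptor, was at 134, 11.6, 1.96, 6.6 and 4.19 CPM with water and at 2.22 to 7.88 CPM with sugar. Cux2, a repressor that is high in female liver, was at 175, 3.39, 0.808, 3.5 and 1.92 CPM with water and at 0.277 to 7.4 CPM with sugar. Per3, a clock repressor, was at 21.5, 2.17, 1.53, 0.699 and 1.49 CPM with water and at 0.554 to 2.95 CPM with sugar. Inhbb, an inhibin subunit, and Map3k6, a kinase, were at 11.5 and 13.8 CPM in water replicate 1 and reached at most 4.08 and 2.57 CPM elsewhere.

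**Figure D2:**
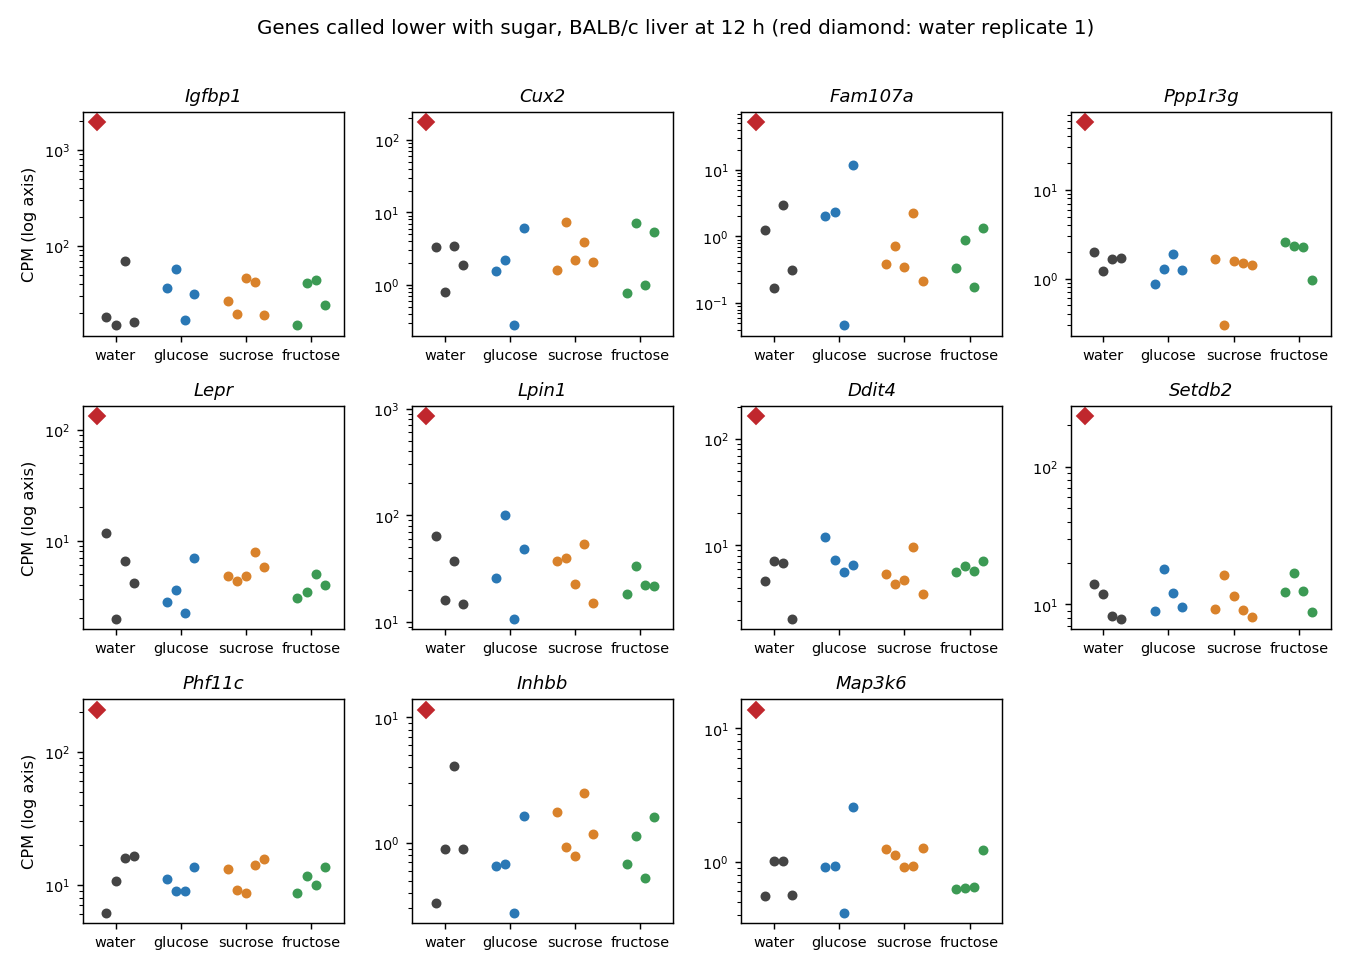
CPM on a log axis (vertical) in each library, by drink (horizontal), for 11 of the called genes that have a gene symbol and a mean of at least 1 CPM. Each point is a library, and the red diamond is water replicate 1, for example at 1939 CPM for Igfbp1, above all other points in each panel.

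**Figure D3:**
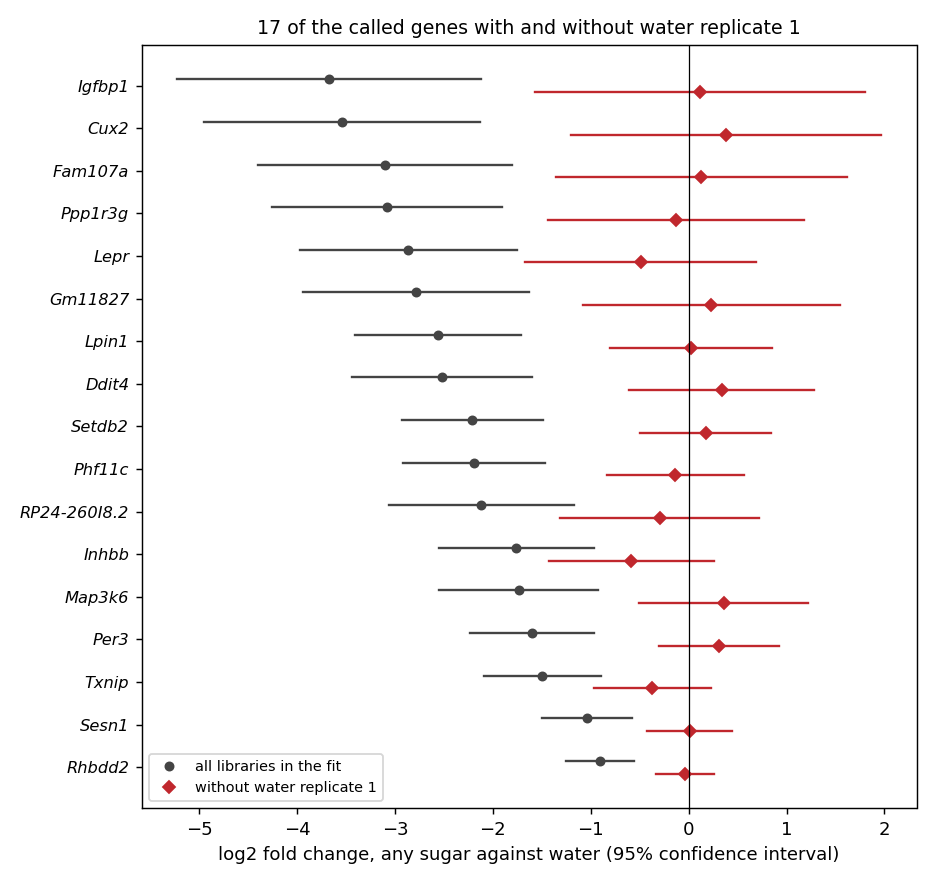
Log2 fold change of the pooled sugars against water (horizontal axis) with 95% confidence intervals for 17 of the 19 called genes (vertical axis). Dark circles use all libraries, for example -3.67 for Igfbp1, and red diamonds leave out water replicate 1, for example 0.12 for Igfbp1. Without it, the interval of each gene drawn includes 0.

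Members of other lists also lay beyond the other libraries in water replicate 1, beside 203 below and 197 above of all 16886 genes tested. Of 16 genes tied to growth hormone and STAT5, 7 were at least 2-fold below and 2 at least 2-fold above the other 17 libraries in it. Elovl3, a fatty acid elongase of male liver, was at 1.75 CPM there and at 77.1 to 379 CPM elsewhere. Hsd3b5, a male-specific steroid enzyme, was at 2.44 CPM against 87.9 to 524 CPM. Among 19 clock genes, 4 were above (Per1, Per3, Tef and Ciart) and Npas2 was below. Tat, a tyrosine-degrading enzyme induced by glucocorticoids, was at 3592 CPM in that library and at 281 to 1361 CPM in the others. The 5 BALB/c livers taken at 0 h, after the fast, ranged widely for the called genes. Igfbp1 ran there from 46.0 through a median of 91.9 to 10550.1 CPM, and Lpin1 from 152 through 379 to 951 CPM. For 14 of the 19 called genes water replicate 1 lay within the range of the 0 h livers, for 4 it lay above it and for 1 below it. This was not counted over all genes tested, so that no background share stands beside it. Its whole profile was still nearest to the 12 h livers, as it was for all 18 libraries. The means compared were of the other 17 libraries at 12 h and of 5 at 0 h, so they were not of equal size.

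None of the 3 sugars carried a called change by itself in edgeR's test. Against water, glucose, sucrose and fructose had 0 called genes each (0%), with 415, 472 and 544 genes at an unadjusted p under 0.05. DESeq2 called 23, 18 and 27, and 43 of these 68 calls had a mean under 1 CPM. All 19 genes were below water with each of the 3 sugars, as comparisons that share their water libraries, and the estimate was lowest with glucose for 5, with sucrose for 5 and with fructose for 9. These directions rest on water replicate 1, without which 10 of the 19 were above 0 with the pooled sugars. For Igfbp1 the log2 fold changes were -3.54 ± 1.21 with glucose, -3.75 ± 1.12 with sucrose and -3.73 ± 1.22 with fructose, and without water replicate 1 they were 0.25 ± 1.04, 0.043 ± 0.99 and 0.059 ± 1.05. For Lpin1 they were -2.09 ± 0.62, -2.54 ± 0.58 and -3.04 ± 0.65 in that order, and without that library 0.49 ± 0.51, 0.040 ± 0.49 and -0.46 ± 0.52. Between pairs of sugars 0 genes were called in each of the 3 comparisons (0%), with 279 at an unadjusted p under 0.05 for fructose against glucose, 153 for sucrose against glucose and 158 for fructose against sucrose. DESeq2 called 19, 9 and 15 in these comparisons. The test of any difference among the 3 sugars also called 0 genes (0%), with 166 at an unadjusted p under 0.05, and so did DESeq2. Over the 57 pairs that the 19 genes give, 4 had an unadjusted p under 0.05 and the smallest adjusted p was 1. The median absolute log2 difference between 2 sugars over these pairs was 0.45.

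No rise passed edgeR's test. The 5 genes with the smallest p among those higher with sugar were Erbb4, Sepp1, Slc25a45, Nudt7 and C4bp. Erbb4, a receptor tyrosine kinase of the EGF receptor family, was at 0.547, 0.847, 0.595, 0.364 and 0.78 CPM with water. It was at 0.581, 5.11, 2.96 and 0.337 CPM with glucose, at 0.989, 3.19, 1.71, 1.48 and 1.05 CPM with sucrose and at 3.3, 3.33, 1.52 and 0.867 CPM with fructose. The sucrose and fructose libraries were all above the water libraries and 2 glucose libraries were not, one of them below every water library. The log2 fold change was 1.71 ± 0.43 (adjusted p = 0.0922), and 1.66 (95% interval 0.73 to 2.60) without water replicate 1. Leaving out single libraries gave an adjusted p from 0.0275 to 1, and DESeq2 gave 0.0111. Sepp1, which encodes the plasma selenium carrier selenoprotein P, was at 4439, 5259, 2932, 2438 and 2262 CPM with water and at 4621 to 7779 CPM with sugar, where water replicate 2 lay inside the sugar range and the other 4 water libraries below it. Its log2 fold change was 0.78 ± 0.22 (adjusted p = 0.229), with 0.78, 0.76 and 0.81 for glucose, sucrose and fructose. With limma's voom and quality weights its adjusted p was 0.00869, the only call for the pooled sugars in that fit. Slc25a45, a mitochondrial carrier, was at 9.63 to 15.7 CPM with water and at 14.4 to 21.9 CPM with sugar (log2 fold change 0.50 ± 0.14, adjusted p = 0.25). Nudt7, a peroxisomal coenzyme A hydrolase, had 0.98 ± 0.29 (adjusted p = 0.341), and C4bp, a complement regulator, 0.44 ± 0.15 (adjusted p = 0.574).

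The groups were also compared by whether their libraries overlap. In 5 genes every sugar library was below every water library (0.0296% of the genes tested), and in 1 gene every sugar library was above (0.00592%). These were Gsta1, Cyp2a5, Idh2, Atg14 and Nup210l in the first direction and Cym in the second. They were chosen after their values were seen, none was called in the pooled test, and Nup210l and Cym had mean levels of 0.212 and 0.164 CPM. Gsta1 (chr9:78230656-78242684), a glutathione transferase that conjugates electrophiles, was at 16.2, 14.3, 13.5, 13.5 and 19.2 CPM with water. It was at 8.43, 6.1, 6.61 and 7.96 CPM with glucose, at 5.25, 1.79, 2.27, 2.64 and 5.32 CPM with sucrose and at 8.1, 6.92, 2.52 and 7.21 CPM with fructose. All sucrose libraries were also below all glucose libraries. The pooled log2 fold change was -1.51 ± 0.45 (adjusted p = 0.341), and -1.49 (95% interval -2.44 to -0.55) without water replicate 1. With glucose it was -1.07, with sucrose -2.16 and with fructose -1.31. Sucrose minus glucose was -1.08 with an interval of -2.29 to 0.13, and the adjusted p of each pair of sugars was 1. When the 18 libraries were fitted alone, Gsta1 was the only gene called, with adjusted p = 0.0418 for the pooled sugars and 0.0173 for sucrose. Gsta1 has near-identical relatives, so its counts may be split with them, and Gsta2 was at 49.5 to 76.5 CPM with water and 31.9 to 66.2 CPM with sugar.

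Cyp2a5, a cytochrome P450 that oxidises coumarin, was at 1142, 522, 513, 487 and 481 CPM with water and at 252 to 472 CPM with sugar. Its log2 fold change was -0.73 ± 0.21 (adjusted p = 0.298), and -0.40 (95% interval -0.84 to 0.04) without water replicate 1. Idh2, the mitochondrial isocitrate dehydrogenase that makes NADPH, was at 109 to 163 CPM with water and at 80.5 to 105 CPM with sugar. Atg14, a subunit of the kinase complex that starts autophagy, was at 14.6 to 22.4 CPM with water and at 11.1 to 13.7 CPM with sugar. Of the 15 genes of the oxidative stress list driven by NRF2, 0 were called and 11 were below 0, with a median of -0.11. Of the 18 genes of drug metabolism under the receptors CAR and PXR, 0 were called and 13 were below 0, with a median of -0.09. Over all genes tested 0.113% were called lower and 0% higher, and 8896 of 16886 were below 0.

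**Figure D4:**
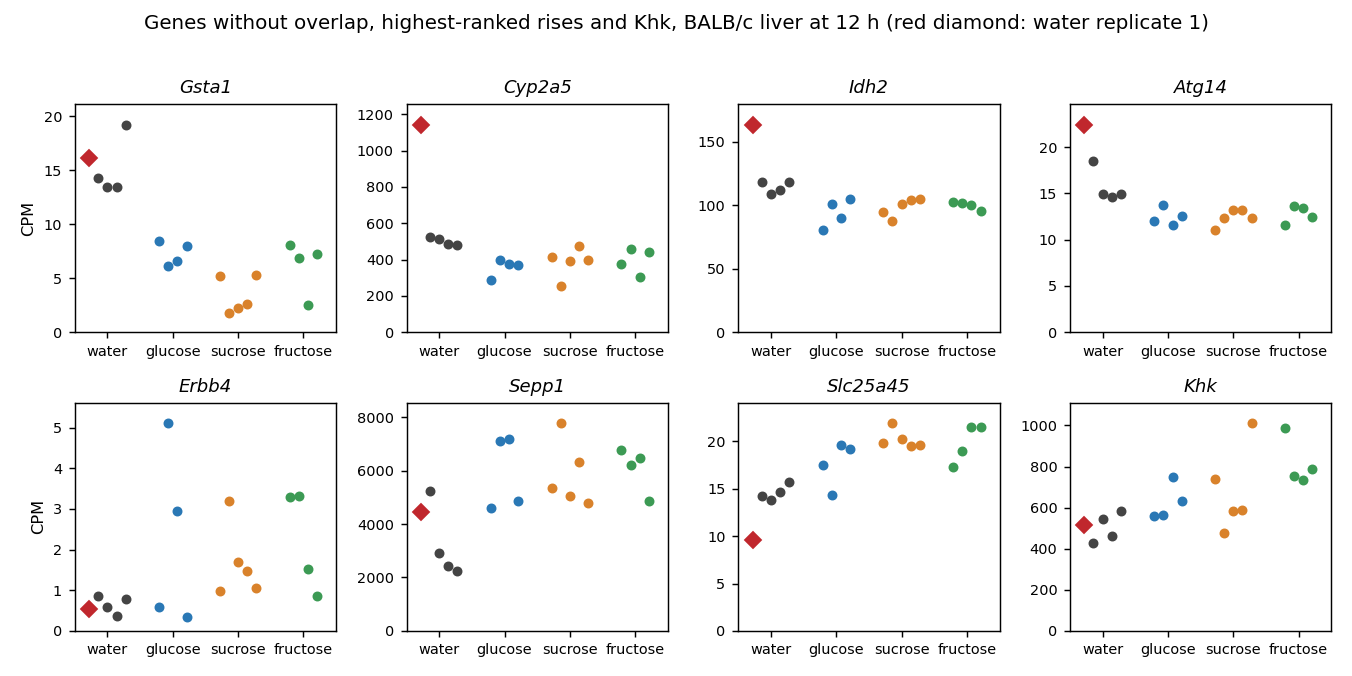
CPM (vertical, linear from 0) in each library by drink (horizontal) for 4 genes whose sugar and water libraries do not overlap (Gsta1, Cyp2a5, Idh2 and Atg14), for the 3 rises with the smallest p, and for Khk. Points are libraries and the red diamond is water replicate 1. For Gsta1 water lies at 13.5 CPM or above and sugar at 8.43 CPM or below, and for Khk the fructose libraries lie at 734 CPM or above and water at 586 CPM or below.

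In the fructose pathway, Khk separated the fructose livers from the water livers without being called by edgeR. Khk was at 515, 429, 547, 459.6 and 586 CPM with water and at 986, 755, 734 and 789 CPM with fructose, with no overlap. It was at 557 to 751 CPM with glucose and at 478 to 1011 CPM with sucrose, both overlapping water. The log2 fold change with fructose was 0.69 ± 0.24 (adjusted p = 1). Dak was at 711, 424, 416, 338 and 339 CPM with water and at 879.9, 976, 842 and 630.4 CPM with fructose, where water replicate 1 was inside the fructose range. Over all genes tested, fructose libraries lay wholly above water in 0.338% and wholly below in 0.397%. With glucose 0 of the 8 genes of fructose breakdown were wholly above or below water, beside 0.261% and 0.272% of all genes, and with sucrose also 0, beside 0.166% and 0.178%. The medians of the 8 were 0.08 with glucose, 0.24 with sucrose and 0.37 with fructose, beside -0.01 with fructose over all genes.

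Of the 26 genes of the fed and fasted liver, 2 were called lower (Txnip and Igfbp1) and 0 higher, beside 0.113% and 0% of all genes tested, and without water replicate 1 none was called. Genes of fat synthesis had estimates on both sides of 0. Fasn was at 0.03 (95% interval -0.68 to 0.75), Acly at 0.12 (-0.54 to 0.77) and Scd1 at 0.24 (-0.83 to 1.31). Acaca ran from -0.47 to -0.01 with each library left out in turn. Of the 18 genes of the fat synthesis list 0 were called and 6 were below 0, beside 8896 of 16886 over all genes tested. Their medians were 0.12 with glucose, -0.26 with sucrose and 0.25 with fructose, beside -0.004, -0.02 and -0.01 over all genes. Pklr, the pyruvate kinase of glycolysis, was at 53.6 to 146 CPM with water and at 68.2 to 289 CPM with sugar, with a log2 fold change of 0.84 (-0.06 to 1.74). For glucose release, G6pc was at 0.12 (-0.56 to 0.79) and Pck1 at 0.06 (-0.99 to 1.10). Fgf21, a fasting and sugar hormone of the liver, was at 0.0729, 1.03, 2.3, 5.34 and 4.58 CPM with water and at 2.29 to 9.69 CPM with sugar. For Fgf21 the log2 fold change was 0.95 (-0.20 to 2.09), and 0.64 (-0.55 to 1.82) without water replicate 1. Cpt1a, which admits fatty acids to mitochondria for oxidation, was at -0.03 (-0.45 to 0.38). In the clock, Nr1d1 was at -0.90 (adjusted p = 0.566) with all libraries and at -0.38 without water replicate 1.

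**Figure D5:**
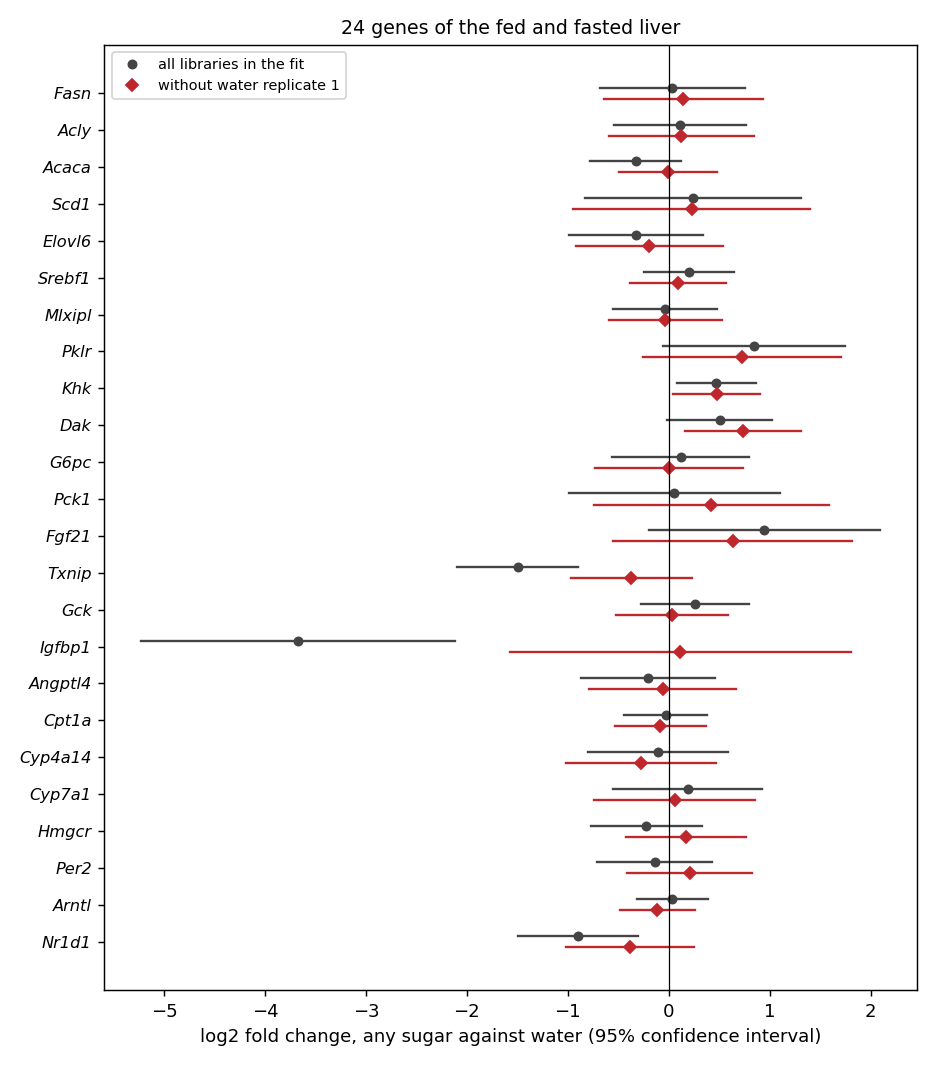
Log2 fold change of the pooled sugars against water (horizontal axis) with 95% confidence intervals for 24 genes of the fed and fasted liver (vertical axis). Dark circles use all libraries and red diamonds leave out water replicate 1. Txnip and Igfbp1 lie at -1.50 and -3.67 with all libraries, and their intervals without that library include 0.

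Enzymes of amino acid breakdown and the urea cycle had low estimates in several members. Of 21 such genes 0 were called and 16 were below 0, beside 0.113% called lower and 8896 of 16886 below 0 over all genes. The median was -0.23, or -0.08 without water replicate 1. Oat, ornithine aminotransferase, was at 576, 535, 477, 708 and 413 CPM with water and at 259 to 495 CPM with sugar. Its log2 fold change was -0.66 ± 0.22 (adjusted p = 0.556), and -0.64 without water replicate 1. Ass1, argininosuccinate synthase, was at 4451, 4424, 3386, 4191 and 2654 CPM with water and at 1623 to 2642 CPM with sucrose, without overlap, and its pooled log2 fold change was -0.72 ± 0.21 (adjusted p = 0.341). Of the 21 genes, sucrose libraries were wholly below water in 3 (Ass1, Oat and the glutaminase Gls2), beside 0.178% of all genes tested. Fructose libraries were wholly below in 2 (Oat and Hpd, a dioxygenase of tyrosine breakdown), beside 0.397%. The 24 genes of cholesterol synthesis and uptake had 0 called members, beside 0.113% called lower over all genes tested. Their medians were -0.19 with the pooled sugars, and -0.13, -0.47 and 0.04 with glucose, sucrose and fructose.

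In C57BL6/J mice, 20 libraries gave the same comparison at 12 h. The test of a difference between the strains called 0 genes (0%), with 378 at an unadjusted p under 0.05 and 15 called by DESeq2. Without water replicate 1 it also called 0, with 309 at an unadjusted p under 0.05. For Setdb2 and Phf11c the C57BL6/J log2 fold changes were 0.07 and 0.18, beside -2.21 and -2.20 in BALB/c with all libraries and 0.17 and -0.14 without water replicate 1. For Gsta1 the value was -0.96 in C57BL6/J, and for Oat -0.81. The interval of the strain difference for Gsta1 ran from -1.86 to 0.76.

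Against the 3 h and 6 h livers of BALB/c, the effect of the pooled sugars differed for 6 genes each (0.0355% of the genes tested in each). From 3 h to 12 h these were Rgs16, Lpin1, Ulk1, Txnip, Phf11c and Spata13. From 6 h to 12 h they were Rgs16, Lpin1, Txnip, Slc25a47, Acaca and Lepr. Rgs16, a regulator of G protein signalling that responds to ChREBP, had log2 fold changes of 3.58 at 3 h (adjusted p = 0.0777), 3.72 at 6 h (adjusted p = 0.0124) and a 95% interval of -3.18 to -0.83 at 12 h (adjusted p = 0.341). At 12 h it was at 486, 95.6, 35.1, 73.8 and 13.7 CPM with water and at 7.21 to 114 CPM with sugar. The difference of 12 h minus 3 h was -5.59 ± 1.03 (adjusted p = 0.00461), and -4.22 (adjusted p = 0.188) without water replicate 1. Ulk1, a kinase of autophagy, had 1.20 at 3 h and -0.35 at 12 h, a difference of -1.55 ± 0.30 (adjusted p = 0.00548), and -1.30 (adjusted p = 0.188) without that library. For Lpin1 the 12 h minus 3 h difference moved from -3.60 to -1.02 without it. Without water replicate 1 edgeR called none of these differences at either time, with 542 and 576 genes at an unadjusted p under 0.05.

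Markers of other cells and tissues had 0 called members in each list, beside 0.113% called lower over all genes tested. Those of Kupffer cells summed to 179 to 241 CPM with water and 162 to 259.9 CPM with sugar, and those of stellate cells to 279.5 to 332 and 271 to 349 CPM. Red cell markers summed to 103 CPM in water replicate 1, the lowest of the 18, and to 162 to 588 CPM in the others. Markers of pancreas (23.9 against 33.4 to 95.6 CPM) and of stomach and gut (6.42 against 18.9 to 59.9 CPM) were also lowest in that library. Nearly all of the stomach and gut sum came from Fabp2, at 6.09 CPM there and at 18.6 to 59.7 CPM in the others. That sum therefore describes 1 gene and not a tissue. Skeletal muscle markers summed to 100.2 CPM in water replicate 2 and to 0.776 to 21.3 CPM in the other 17. All 9 muscle markers tested were below 0, with a median of -2.59, or -2.92 without water replicate 1. These signs depend on single libraries. With each library left out in turn, the pooled log2 fold change ran from -6.60 to 5.29 for Myh4 and from -1.42 to 0.18 for Mylpf. All 8 endothelial markers were below 0 (median -0.17) and all 6 red cell markers above it (median 0.65). The part of these markers in the results was not tested.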

How the data were processed

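RNA from BALB/c and C57BL6/J mouse livers was sequenced. The authors deposited whole-number read counts per gene, not normalized, for 35275 genes; 8695 of these had 0 reads throughout. The submitters' processing notes name CASAVA, STAR 2.5, HTSeq 0.6.1, DESeq2, mm10 and GRCm38, with no role or order. The use of strand in counting was not stated by any source read. Overlapping, antisense and near-identical genes (Gsta1 and Gsta2, the Cyp2a, Phf11 and Mup families) are therefore uncertain.

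From the counts, edgeR 4.0.16 (R 4.3.3) filtered low genes with filterByExpr, leaving 16886, scaled libraries by TMM and fitted 1 mean for each of 26 groups in the 63 BALB/c and 65 C57BL6/J libraries together, which share 1 estimate of the spread. The pooled contrast was the mean of the 3 sugars minus water. The quasi-likelihood test was adjusted by Benjamini-Hochberg over all genes tested, with calls at an adjusted p under 0.05. Errors are SE and intervals are 95%. The procedure was also run on simulated counts. No simulated library was made to stand apart as water replicate 1 does, so that run cannot speak to calls that rest on it. Total counts of 19697267 to 35642447 per library limit precision for genes near 0.

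Alternatives were DESeq2 1.42.0, RLE scaling, no filter, a replicate block, the 18 libraries alone, other poolings, libraries without the name suffix, and each library left out. After the data were seen, limma 3.58.1 (voom with a quality weight for each library), the block in the 18 libraries alone, and a fit without libraries nearer to another time were added. Named genes were, among called genes with a symbol and a mean of at least 1 CPM, the 12 with the lowest and the 12 with the highest change, or the 5 with the smallest p where fewer than 5 were called. Up to 5 genes per interaction, 3 called per list, and the 26 genes of the fed and fasted liver were added. Other genes were named after their values were seen. The members and the 43 lists were chosen with earlier results of these data known. Some genes that the rule names are not reported here, though counts and medians over lists include them.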

Additional observations from a re-analysis of the deposited data

Results flagged for a closer look

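In 176 groups of libraries (44 genes, 4 drinks), 24 values lay far from the rest of their own group, by the gap to the nearest library as a share of the group's range, which chance alone brings about in a small part of groups. Water replicate 1 gave 17 of them, each the highest of the water libraries. These were, in CPM, Igfbp1 at 1940, Lpin1 at 855, Dak at 711, Txnip at 477, Setdb2 at 233, Phf11c at 208, Cux2 at 175, Ddit4 at 165 and Lepr at 134. The others in that library were Sesn1 at 64.0, Rhbdd2 at 63.3, Ppp1r3g at 57.4, Fam107a at 51.7, Per3 at 21.5, Gm11827 at 19.2, RP24-260I8.2 at 14.1 and Map3k6 at 13.8 CPM. All genes flagged in that library but Dak were called with the pooled sugars, and those calls rest on that library. Such flags follow from how the genes were chosen and are no separate support. The other 7 were G6pc at 970 CPM in water replicate 4, Angptl4 at 174 CPM in glucose replicate 2, Txnip at 55.1 CPM in fructose replicate 1, Fam107a at 2.28 CPM in sucrose replicate 4, Map3k6 at 1.23 and Gm11827 at 0.639 CPM in fructose replicate 5, and a low value of Ppp1r3g (0.298 CPM, sucrose replicate 2).

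The effect of the pooled sugars differed between times in 12 tests of the difference itself by edgeR. For 12 h minus 3 h the log2 differences were -5.59 for Rgs16, -3.60 for Lpin1, -2.62 for Phf11c, -2.35 for Txnip, -1.55 for Ulk1 and -0.90 for Spata13. For 12 h minus 6 h they were -5.73 for Rgs16, -4.12 for Lepr, -3.21 for Lpin1, -2.20 for Txnip, -1.62 for Slc25a47 and -1.50 for Acaca. None of the 12 was called without water replicate 1.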

How the results depend on the processing

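The number of genes called with any sugar was 19 in the main fit, 33 with DESeq2 and 6 with the replicate block. It was 1 with voom and quality weights (Sepp1, higher) and 1 with the 18 libraries alone (Gsta1, lower). Neither of these 2 genes was among the 19. The replicate block in those 18 gave 2 calls, 1 higher and 1 lower. There were 9 calls without sucrose and 9 without fructose. Leaving out single libraries gave 0 (water replicate 1) to 28. For glucose, 0 became 23 with DESeq2 and 0 to 3 with a library left out. For sucrose, it became 18 with DESeq2, 1 in the 18 libraries alone, 1 with the block there, and 0 to 5 with a library left out. For fructose, it became 27 with DESeq2, 2 with voom and 0 to 3 with a library left out. DESeq2 called 19 for fructose against glucose, 9 for sucrose against glucose, 15 for fructose against sucrose and 15 for the strain difference. For 12 h minus 3 h, 6 became 33 with DESeq2, 1 with voom, 3 without the name suffix, and 0 to 10 with a library left out (0 without water replicate 1, 10 without water replicate 4). For 12 h minus 6 h, 6 became 33, 2 and 1 in the same order, 1 without libraries nearer to another time, and 0 to 15 with a library left out (0 without water replicate 1, 1 without glucose replicate 3, 3 without fructose replicate 5, 12 without water replicate 3, 15 without water replicate 5). Of DESeq2's 33 any-sugar calls, 14 had a mean under 1 CPM. With any sugar, log2 fold changes over the left-out libraries, each highest without water replicate 1, ran from -3.98 to 0.12 for Igfbp1, -3.86 to 0.38 for Cux2, -3.56 to 0.13 for Fam107a, -2.86 to 0.024 for Lpin1, -2.83 to 0.34 for Ddit4, -2.49 to 0.17 for Setdb2, -2.01 to 0.36 for Map3k6, -1.24 to 0.011 for Sesn1, -1.89 to 0.31 for Per3 and -3.09 to 0.23 for Gm11827. Voom gave 0.051 for Igfbp1, 0.20 for Ddit4 and 0.065 for Per3. The cause was not tested. Same-numbered libraries of different groups correlated at 0.0667 to 0.431 (24 of 25 pairs over 0.1), and 16 of 18 correlated best with their own number. The library names also run in the order of the replicate numbers, through all groups before the next number starts. No label names a batch, day or pairing, so this is a hint and not a stated design.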
